A study of Mus musculus with 8 samples.

Results

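MHC class I antigen presentation was followed through 10 genes in the cerebellum of *Atm*-WT and *Atm*-KO mice. They were the light chain *B2m*, the classical heavy chains *H2-K1* and *H2-D1*, the peptide transporter subunits *Tap1* and *Tap2*, the loading factor *Tapbp*, the immunoproteasome subunits *Psmb8*, *Psmb9* and *Psmb10*, and the transactivator *Nlrc5*. The genes were chosen by symbol, through their Ensembl identifiers, out of 56691 genes in the count table. All 10 passed the filter on low counts and were among the 22423 genes tested.

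The study placed the ATM kinase in insulin signaling and asked what its loss does to the cerebellum. Whole cerebellum was taken from 4 *Atm*-WT mice (labelled ATM +/+, mice 2M, 7M, 13M and 32M) and 4 *Atm*-KO mice (ATM -/-, mice 1M, 7F, 11M and 12M), each giving its own bulk RNA library. The animals were untreated littermates of the line B6;129S4-Atmtm1Bal/J aged 6 months, and their circulation was rinsed with saline before dissection, so both groups share the mixed strain background. Mouse 7F alone was marked F and the others M. Libraries held 65967130 (*Atm*-KO 12M) to 88030300 counts, and levels are given as CPM, counts per 1000000 of the library, after TMM scaling, an adjustment for differences in library composition. *Atm* itself had 59.0 to 80.0 CPM in the *Atm*-WT against 41.1 to 51.1 CPM in the *Atm*-KO libraries, without overlap. Its log2 fold change was -0.66 (adjusted p = 0.0775, edgeR quasi-likelihood test), and reads of the targeted gene were present in every *Atm*-KO library. Counts over the whole gene do not show whether a functional transcript remains.

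Cells use the class I pathway to display fragments of their own proteins to cytotoxic T cells. Proteasomes cut the proteins, TAP carries the peptides into the endoplasmic reticulum, tapasin helps load them onto a heavy chain paired with beta-2 microglobulin, and the complex moves to the cell surface. Interferons raise most of these genes together, partly through NLRC5 at their promoters, and in the brain microglia and endothelial cells carry much of the class I expression while neurons carry less.

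Of the 10 genes, 8 had a window in the RefSeq promoter table (build GRCm38.p6), which spans 250 bases before to 50 after a gene start, and *Tap2* and *Nlrc5* had none. *H2-K1* had 2 windows, of which only the first listed is shown, described and aligned. The windows of the heavy and light chains and of *Tap1* are shown because they hold the letters searched for in this pathway. Capitals mark, on either strand, the interferon regulatory factor core AANNGAAA, the NF-kappaB core GGGGATTCC, the X2 core TGACG and the Y box CCAAT, with no overlap between matches in the windows shown. The letters were chosen after the windows had been read.
H2-K1, chr17:34000298-34000597, minus strand: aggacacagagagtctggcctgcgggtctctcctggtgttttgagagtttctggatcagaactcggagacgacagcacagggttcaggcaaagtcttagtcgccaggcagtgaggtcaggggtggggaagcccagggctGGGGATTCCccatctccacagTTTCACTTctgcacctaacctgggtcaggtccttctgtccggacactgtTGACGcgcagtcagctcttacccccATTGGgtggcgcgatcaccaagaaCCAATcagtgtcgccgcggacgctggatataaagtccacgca
H2-D1, chr17:35262844-35263143, plus strand: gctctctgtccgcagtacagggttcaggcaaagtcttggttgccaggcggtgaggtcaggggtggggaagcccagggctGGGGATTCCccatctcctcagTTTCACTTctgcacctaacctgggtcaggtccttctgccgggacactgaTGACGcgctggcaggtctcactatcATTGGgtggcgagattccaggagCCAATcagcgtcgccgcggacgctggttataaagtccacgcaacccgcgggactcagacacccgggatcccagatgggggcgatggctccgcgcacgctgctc
B2m, chr2:122147437-122147736, plus strand: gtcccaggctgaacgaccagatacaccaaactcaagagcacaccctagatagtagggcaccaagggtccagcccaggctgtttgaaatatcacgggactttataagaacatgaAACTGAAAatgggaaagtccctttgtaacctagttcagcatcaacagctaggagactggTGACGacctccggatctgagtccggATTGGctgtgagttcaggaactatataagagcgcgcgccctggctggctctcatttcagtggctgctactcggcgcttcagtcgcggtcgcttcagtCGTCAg
Tap1, chr17:34187306-34187605, plus strand: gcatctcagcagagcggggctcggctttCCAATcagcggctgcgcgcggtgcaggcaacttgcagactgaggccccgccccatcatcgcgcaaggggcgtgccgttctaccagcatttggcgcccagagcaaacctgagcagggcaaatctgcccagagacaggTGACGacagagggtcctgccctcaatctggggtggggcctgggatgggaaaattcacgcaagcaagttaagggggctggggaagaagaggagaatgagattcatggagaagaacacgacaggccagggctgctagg

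*H2-K1* and *H2-D1* each held all 4 motifs, with the Y box in 2 places of each window. Across the part of their windows that could be aligned, 206 of 228 columns were identical (90.4%). *B2m* held the interferon core in 1 place, X2 in 2 and the Y box in 1. *Tap1* held X2 and the Y box in 1 place each, and its window shares 275 bases with that of *Psmb9*, which starts 226 bases away on the other strand, so both genes show the same pair of matches. *Tapbp* held the Y box in 2 places, and *Psmb8* and *Psmb10* held none of the letters. Of 32851 promoter windows of the table, 0.25% held GGGGATTCC, 20.8% TGACG, 23.9% AANNGAAA and 37.4% CCAAT, so the last 3 were common. A match is a description of letters and not of binding.

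In *Atm*-KO cerebellum all 10 genes were below their *Atm*-WT level by the fitted log2 fold change, from -0.62 for *B2m* to -0.11 for *Tap2*, with a median of -0.25. The median of all genes tested was -0.018, and 53.1% of them had a log2 fold change below 0, or 63.8% of the 15322 protein-coding genes. None of the 10 passed an adjusted p of 0.05 in edgeR, where 0.0178% of all genes did, and the smallest adjusted p was 0.104. Without adjustment, 4 genes had a p under 0.05, *B2m*, *H2-K1*, *H2-D1* and *Tapbp*, all lower, against 8.48% of all genes called lower and 11.7% called higher. *H2-K1* alone had libraries that did not overlap between genotypes, where 5.12% of all genes were lower without overlap and 6.47% higher. DESeq2, the test named in the paper's methods, called *B2m* (adjusted p = 0.0291) and *H2-K1* (adjusted p = 0.0120) lower, with 2.44% of its genes called lower. The number of genes called depended much on the method. At an adjusted p of 0.05 in either direction, DESeq2 called 1552 of 20724 genes, 994 of them past an absolute log2 fold change of 0.5 as well. By contrast, edgeR called 4 with the filter on low counts and 591 of 36568 without it. In bulk tissue, fewer cells of a type and less RNA per cell cannot be told apart. Each library came from its own mouse, so the spread is that between mice.

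The share of counts from mitochondrial genes moved with the genotype. It was 1.199%, 0.903%, 0.909% and 1.14% in *Atm*-WT mice 2M, 7M, 13M and 32M and 0.671%, 0.952%, 0.726% and 0.565% in *Atm*-KO mice 1M, 7F, 11M and 12M. Mouse 7F was the only *Atm*-KO library inside the *Atm*-WT range, and the *Atm*-KO mice had the same order in this share as in *B2m* below. The part of this difference in the class I values was not tested.

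**Figure D1:**
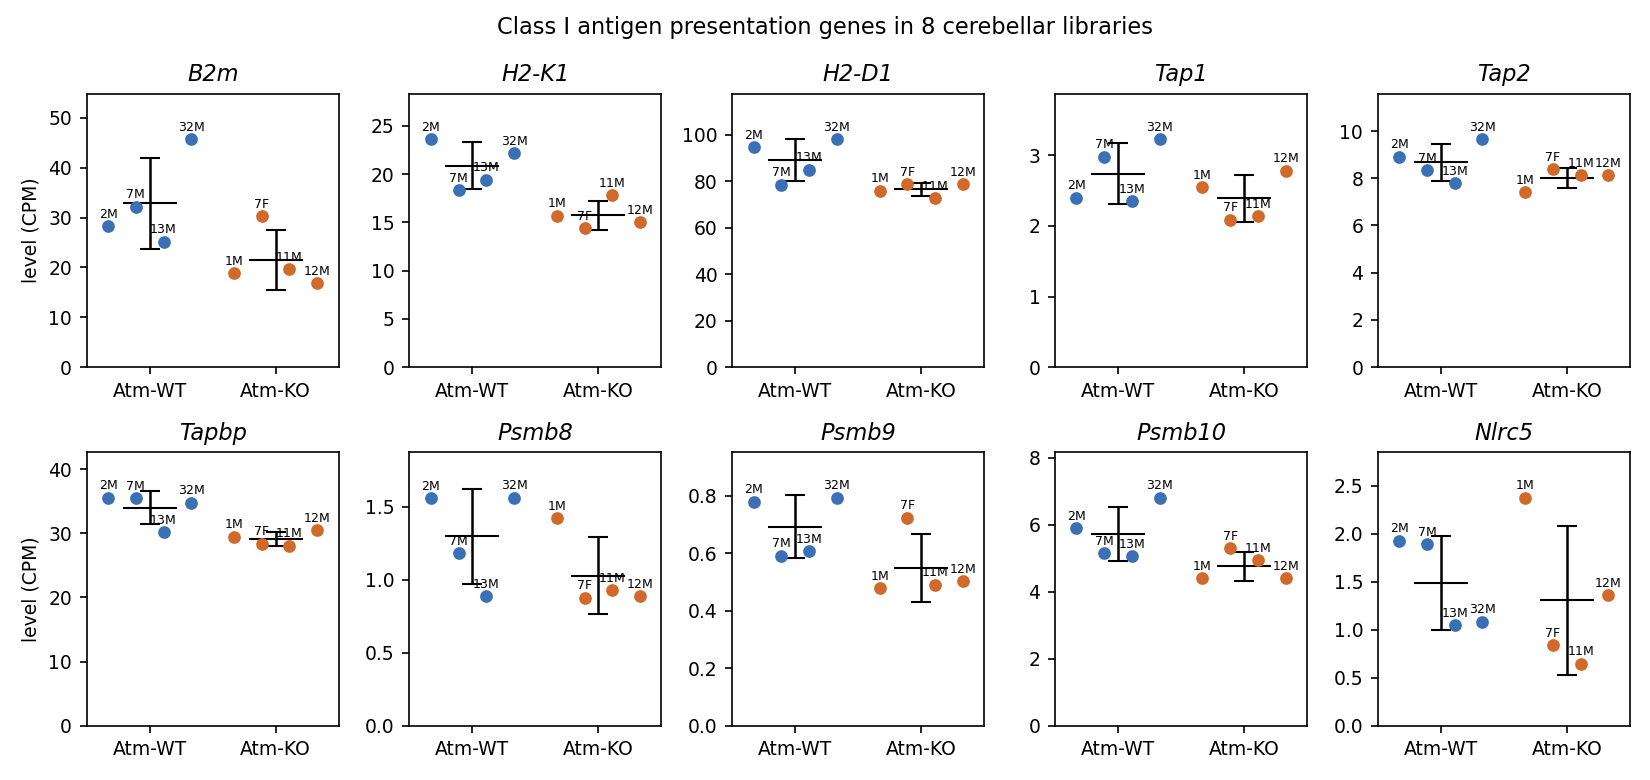
Level in CPM (y axis, from 0) of the 10 class I genes in each library, with *Atm*-WT in blue and *Atm*-KO in orange. Points are mice with their labels and bars are the mean ± SD of 4 mice. Only *H2-K1* separates the genotypes without overlap, and mouse 32M has the highest of the 8 values in 7 panels.

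*B2m* encodes beta-2 microglobulin, the light chain that every classical class I molecule needs to fold and reach the surface. It lies on chromosome 2 (121977957 to 121983594, plus strand, GRCm39). *B2m* was at 28.3, 32.2, 25.2 and 45.7 CPM in *Atm*-WT mice 2M, 7M, 13M and 32M and at 18.8, 30.3, 19.7 and 16.9 CPM in *Atm*-KO mice 1M, 7F, 11M and 12M. The 3 *Atm*-KO mice marked M lay below every *Atm*-WT mouse, mouse 7F lay among them, and mouse 32M stood above the rest. The log2 fold change was -0.62 with an SE of 0.20 (adjusted p = 0.144 by edgeR's quasi-likelihood test, exact permutation p = 0.0857), a mean of 32.8 ± 9.06 against 21.4 ± 6.01 CPM. Without mouse 7F it was -0.81 (adjusted p = 0.0632), and without mouse 32M -0.42 (adjusted p = 0.296). With 1 surrogate variable estimated from the data in the fit it was -0.25 (adjusted p = 0.636), the weakest value among the alternatives.

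*H2-K1* encodes the classical heavy chain K, which presents peptides to CD8 T cells. The gene is on chromosome 17 at 34214987 to 34219321 (minus strand, GRCm39). It was at 23.6, 18.3, 19.4 and 22.1 CPM in *Atm*-WT mice and at 15.7, 14.4, 17.8 and 15.0 CPM in *Atm*-KO mice, in the order given above. All 4 *Atm*-KO values lay under the lowest *Atm*-WT value, although mouse 11M came close to mouse 7M. The log2 fold change was -0.41 with an SE of 0.10 (adjusted p = 0.104, edgeR quasi-likelihood test), and a two-sided exact permutation test of CPM gave p = 0.0286, the smallest that 4 against 4 mice allow. With library sizes alone in place of TMM scaling, the genotypes overlapped.

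*H2-D1* encodes the other classical heavy chain of this haplotype and had the highest level of the 10 genes. It lies on the same chromosome at 35481691 to 35486475. *H2-D1* was at 94.7, 78.6, 85.0 and 98.1 CPM in *Atm*-WT mice and at 75.9, 78.8, 72.8 and 78.7 CPM in *Atm*-KO mice. The *Atm*-KO values lay close together, and 2 of them lay just above the lowest *Atm*-WT value of mouse 7M. Its log2 fold change was -0.22 with an SE of 0.076 (adjusted p = 0.155 by edgeR's quasi-likelihood test, exact permutation p = 0.0857).

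The balance between chains was compared within each library, where the scaling of the library has no part. The CPM of *H2-K1* were 48.4% to 83.6% of those of *B2m* in the *Atm*-WT against 47.7% to 90.6% in the *Atm*-KO libraries (log2 difference 0.21, two-sided exact permutation p = 0.486, and from 0.071 without mouse 32M to 0.43 without mouse 7F). The log2 ratio of *H2-D1* to *B2m* was 0.40 higher in *Atm*-KO mice (exact permutation adjusted p = 0.214). *H2-K1* stood at 22.6% to 24.96% of *H2-D1* in the *Atm*-WT against 18.3% to 24.5% in the *Atm*-KO libraries (log2 difference -0.19, exact permutation adjusted p = 0.214). None of these 3 ratios differed beyond the spread between mice, with adjusted values taken over the 3.

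The heavy chains share long stretches of sequence with each other and with other class I genes, so reads may be split between them. Exons of *H2-K1* also overlap the long noncoding RNA Gm53999 on the opposite strand over 26.8% of their length, and those of *H2-D1* overlap 5430410E06Rik over 24.2%. How strand was treated in counting is not given in the sources used here, so such reads cannot be assigned with certainty.

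Peptide transport and loading rest on TAP, the pair of *Tap1* and *Tap2* that pumps peptides into the endoplasmic reticulum, and on tapasin, encoded by *Tapbp*, which bridges TAP and the heavy chain. *Tapbp* was at 35.6, 35.5, 30.2 and 34.8 CPM in *Atm*-WT mice and at 29.5, 28.4, 28.1 and 30.5 CPM in *Atm*-KO mice. The genotypes overlapped through mouse 13M alone, whose value was below that of mouse 12M. The log2 fold change of *Tapbp* was -0.22 with an SE of 0.074 (adjusted p = 0.143 by edgeR's quasi-likelihood test, exact permutation p = 0.0571). Exons of *Tapbp* overlap those of *Zbtb22* on the same strand over 20.9% of their length and Gm19412 on the opposite strand over 25.6%.

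*Tap1* was at 2.40, 2.98, 2.35 and 3.23 CPM in *Atm*-WT mice and at 2.55, 2.09, 2.14 and 2.78 CPM in *Atm*-KO mice. *Tap2* was at 8.91, 8.33, 7.80 and 9.66 CPM in *Atm*-WT mice and at 7.40, 8.39, 8.12 and 8.14 CPM in *Atm*-KO mice. Both overlapped widely, with log2 fold changes of -0.20 for *Tap1* (SE 0.18, adjusted p = 0.574) and -0.11 for *Tap2* (SE 0.11, adjusted p = 0.596) in edgeR. Without mouse 32M they were -0.11 and -0.060, *Tap1* was -0.12 without mouse 7F, and *Tap2* was -0.068 with library size alone and -0.050 with the surrogate variable. The difference between these subunits and *Tapbp* was not tested.

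Immunoproteasomes carry *Psmb8*, *Psmb9* and *Psmb10* in place of the constitutive catalytic subunits *Psmb5*, *Psmb6* and *Psmb7*, which favors peptides that fit class I molecules. *Psmb8* was at 1.56, 1.18, 0.886 and 1.56 CPM in *Atm*-WT mice and at 1.42, 0.878, 0.928 and 0.888 CPM in *Atm*-KO mice. Mouse 1M stood with the higher *Atm*-WT mice, and the other *Atm*-KO mice lay at the level of mouse 13M. *Psmb9*, read from 34 to 68 counts a library, was at 0.779, 0.591, 0.606 and 0.793 CPM in *Atm*-WT mice and at 0.478, 0.723, 0.490 and 0.503 CPM in *Atm*-KO mice. Here mouse 7F was the exception, and the other 3 *Atm*-KO mice lay under every *Atm*-WT mouse. *Psmb10* was at 5.90, 5.16, 5.07 and 6.81 CPM in *Atm*-WT mice and at 4.41, 5.29, 4.94 and 4.41 CPM in *Atm*-KO mice, with 7F again the only *Atm*-KO value inside the *Atm*-WT range.

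By edgeR, *Psmb8* had a log2 fold change of -0.33 (SE 0.26, adjusted p = 0.508), *Psmb9* of -0.33 (SE 0.27, adjusted p = 0.507) and *Psmb10* of -0.27 (SE 0.14, adjusted p = 0.319). With the surrogate variable these values were -0.21, -0.16 and -0.10. *Psmb8* was -0.53 without mouse 1M, and *Psmb10* was -0.18 without mouse 32M. The replaced subunits were also lower, with *Psmb6* at -0.22 without overlap (adjusted p = 0.167), *Psmb5* at -0.31 (adjusted p = 0.256) and *Psmb7* at -0.18 (adjusted p = 0.26). Within a library, the immunoproteasome subunit stood at 3.42% to 6.18% of its counterpart in CPM for *Psmb8* to *Psmb5*, at 1.19% to 1.93% for *Psmb9* to *Psmb6* and at 7.61% to 9.46% for *Psmb10* to *Psmb7*. Per exon length the ratio was highest for *Psmb10* to *Psmb7*, with a mean of 30.5% against 2.60% for *Psmb8* to *Psmb5* and 0.871% for *Psmb9* to *Psmb6*. Length here is that of all annotated exons of a gene joined in GENCODE vM39, 6025 bases for *Psmb7* and 1.732 kb for *Psmb10*. The paper names another Gencode release, so these per-length ratios depend on the annotation and are not proportions of subunits. The genotype differences of these log2 ratios were 0.0079, -0.12 and -0.084, in the order given. None passed a p of 0.05 (exact permutation p = 1, 0.543 and 0.286 before and 1, 0.814 and 0.814 after adjustment over the 3), and after adjustment a single ratio could not. The second ranged from -0.27 without mouse 7F to -0.038 without *Atm*-WT mouse 2M or *Atm*-KO mouse 1M, and the third was -0.032 without mouse 1M. The sign of the first turned without mouse 13M (-0.16) and without mouse 1M or 12M (-0.10 each). Exons of *Psmb7* overlap *Nek6* over 46.8% of their length.

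*Nlrc5* encodes the class I transactivator, a NOD-like receptor protein that acts at class I promoters. It was at 1.93, 1.89, 1.05 and 1.08 CPM in *Atm*-WT mice and at 2.38, 0.839, 0.645 and 1.36 CPM in *Atm*-KO mice. Both genotypes spread widely, and the highest and the lowest of the 8 values both belonged to *Atm*-KO mice. The log2 fold change was -0.19 with an SE of 0.39 (adjusted p = 0.827, edgeR quasi-likelihood test), and it was 0.05 without mouse 11M.

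Per kilobase of exon, the mean level over the 8 libraries was 27.7 CPM for *H2-D1*, 12.9 for *B2m*, 7.16 for *Tapbp* and 5.75 for *H2-K1*. It was 3.03 CPM per kilobase for *Psmb10*, 1.75 for *Tap2*, 0.427 for *Tap1*, 0.341 for *Psmb8*, 0.164 for *Nlrc5* and 0.163 for *Psmb9*. Neighbors kept this order in all 8 libraries, except that *Tap1* lay above *Psmb8* in 7 and *Nlrc5* above *Psmb9* in 4, so the last pair had no set order. Among these 10 genes the chains and *Tapbp* thus had the highest levels per length, and the transactivator and 2 of the 3 immunoproteasome subunits stood at the low end. The lengths join all annotated exons of a gene in GENCODE vM39, so the order depends on that annotation.

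**Figure D2:**
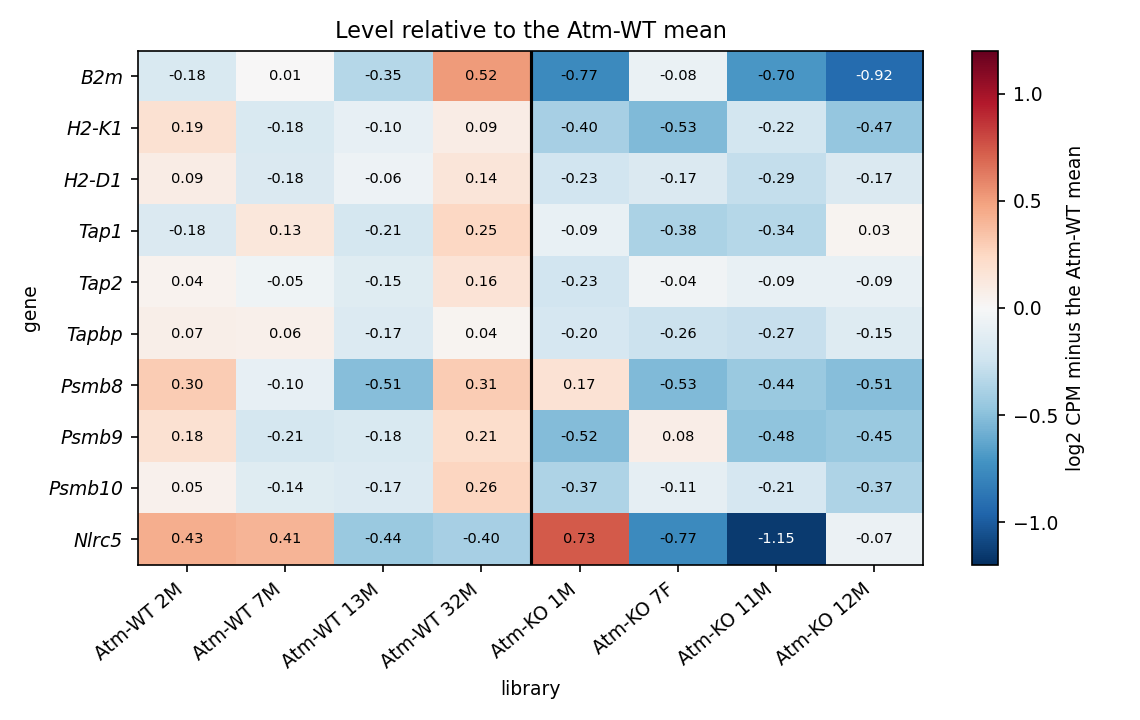
Heat map of log2 CPM minus the *Atm*-WT mean for the 10 class I genes (rows) in the 8 libraries (columns), with red above and blue below that mean and the value in each cell. Mouse 13M is below the *Atm*-WT mean in all 10 genes and mouse 32M above it in 9, while *Atm*-KO mouse 11M is below it in all 10.

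Within the *Atm*-WT group, most members were high in the same mouse and low in the same mouse. Mouse 32M had the highest of all 8 values in 7 of the 10 genes and lay below the *Atm*-WT mean in *Nlrc5* alone. Mouse 13M lay below the *Atm*-WT mean in all 10, with a median of -0.17 on the log2 scale, and was the lowest *Atm*-WT mouse in 7. Among *Atm*-KO mice the medians ran from -0.31 in mouse 11M to -0.21 in mouse 7F. The summed CPM of the 10 genes, with *H2-D1* as the largest single part, was 178 to 224 in the *Atm*-WT against 156 to 170 in the *Atm*-KO libraries. These sums did not overlap between genotypes, and mouse 13M came nearest to the *Atm*-KO range.

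Of the 10 genes, 7 lie on chromosome 17, among many genes with other functions. *Psmb9*, *Tap1*, *Psmb8* and *Tap2* sit within 34.87 kb on chromosome 17, and the exons of *Psmb9* and *Tap1* share 743 bases on opposite strands in GRCm39. Between *Tapbp* and *H2-D1*, a span of 1.35 Mb, 85 other genes were tested. Of these, 48 (56.5%) had a log2 fold change below 0, their median was -0.042, and 10 were lower and 11 higher at an unadjusted p under 0.05, beside 8.48% and 11.7% of all genes tested. *B2m* on chromosome 2 and *Psmb10* and *Nlrc5* on chromosome 8 lie outside the span.

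Among 13 other class I heavy chain genes tested out of 22, which include nonclassical molecules with more restricted roles, 9 were lower and 4 higher, and the median log2 fold change was -0.25. It was -0.13 without mouse 13M and -0.14 without mouse 7F or 32M. *H2-T23*, whose exons overlap A930015D03Rik on the opposite strand over 11.9% of their length, encodes Qa-1, a ligand of receptors on natural killer cells. It was at 7.05, 6.50, 5.07 and 6.06 CPM in *Atm*-WT mice and at 4.53, 4.65, 4.82 and 4.84 CPM in *Atm*-KO mice, so all *Atm*-KO values were under the lowest *Atm*-WT value (log2 fold change -0.39, adjusted p = 0.157, edgeR). *H2-M3*, which presents formylated peptides, was lower at 0.836 ± 0.226 against 1.38 ± 0.326 CPM (SD, n = 4 each, log2 fold change -0.72, adjusted p = 0.174 in edgeR). *H2-K2* was higher in *Atm*-KO at 4.21 ± 0.870 against 3.05 ± 0.607 CPM (log2 fold change 0.46, adjusted p = 0.221 in edgeR). *H2-K2* is annotated as a transcribed pseudogene, and all of its 1052 exon bases are shared with a long noncoding RNA gene of the same symbol and strand, so its reads cannot be assigned with certainty. *H2-M5*, named here after its values were seen, was at 0.0699 to 0.117 CPM in the *Atm*-WT against 0.219 to 0.269 CPM in the *Atm*-KO libraries, a higher value in *Atm*-KO without overlap at a very low level (log2 fold change 1.49, adjusted p = 0.105 in edgeR). In this list 2 genes were lower and 2 higher with an unadjusted p under 0.05, where 8.48% and 11.7% of all genes tested were.

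Class I-like genes outside the H2 region use the same fold, and some pair with beta-2 microglobulin, for other tasks. Of 11 listed, 6 were tested and all 6 were lower, with a median of -0.22, beside 53.1% of all genes tested and 63.8% of protein-coding genes. *Fcgrt* encodes the neonatal Fc receptor, which protects IgG from breakdown. It was at 16.98, 14.7, 16.9 and 16.3 CPM in *Atm*-WT mice and at 12.96, 14.4, 13.8 and 12.4 CPM in *Atm*-KO mice (log2 fold change -0.28, adjusted p = 0.141, edgeR). *Hfe*, a regulator of iron uptake, was at 9.45, 10.97, 10.3 and 10.4 CPM in *Atm*-WT mice and at 6.80, 7.49, 8.47 and 9.41 CPM in *Atm*-KO mice (log2 fold change -0.36, adjusted p = 0.154, edgeR). Neither gene overlapped between genotypes, although the gap was narrow for both, and 5.12% of all genes tested were lower without overlap.

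Of 13 genes of trimming, chaperoning and loading, 10 were lower and 3 higher, and none had an unadjusted p under 0.05. Their median was -0.088 (-0.038 without mouse 1M, -0.14 without mouse 11M and -0.043 with library size alone). The 2 most abundant, the aminopeptidase *Lnpep* and the chaperone *Canx*, were at 817 ± 27.7 against 801 ± 131 CPM and at 504 ± 55.6 against 557 ± 22.8 CPM in *Atm*-KO against *Atm*-WT mice. Of 6 proteasome activators and assembly factors tested, 4 were lower, none at an unadjusted p under 0.05. The 2 most abundant were *Psme4* at 0.16 and *Psme3* at -0.13 in log2 fold change.

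Transcription factors and cofactors of class I and class II genes did not share a direction, with 11 of 17 lower and a median of -0.094 (-0.031 without *Atm*-WT mouse 7M, -0.033 without mouse 7F and -0.042 with library size alone). *Stat2*, which carries type I interferon signals to the nucleus, was higher in *Atm*-KO without overlap, at 51.6, 53.2, 54.2 and 46.3 CPM in *Atm*-WT mice and 65.2, 59.2, 56.8 and 80.6 CPM in *Atm*-KO mice (log2 fold change 0.35, adjusted p = 0.123, edgeR). *Rfx5*, a subunit of the complex on the X box, was at 0.18 (adjusted p = 0.244). *Ezh2*, the methyltransferase of Polycomb repression, was lower without overlap at 25.7 ± 1.16 against 30.0 ± 0.915 CPM (log2 fold change -0.22, adjusted p = 0.125). *Irf1*, which drives class I genes after interferon gamma, was at 2.43 ± 0.361 against 2.79 ± 0.774 CPM (adjusted p = 0.65, named after its values were seen).

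Upstream of these, 6 of 9 interferon receptors, kinases and their inhibitors were lower, with a median of -0.087 (-0.038 without mouse 32M or mouse 1M and -0.039 with library size alone). *Tyk2*, a kinase of the type I interferon receptor, was higher without overlap, at 13.6, 13.1, 14.6 and 13.1 CPM in *Atm*-WT mice and 18.6, 15.3, 17.2 and 21.0 CPM in *Atm*-KO mice (log2 fold change 0.41, adjusted p = 0.104, edgeR). None of 10 interferon genes passed the filter on low counts. Their summed level was 0 in 7 libraries and 0.122 CPM in mouse 1M, and a count of 0 allows up to 3 counts for a gene, which is 0.0341 CPM of the total in the deepest and 0.0455 CPM in the shallowest library.

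Most genes known to respond to interferon were lower. Of 38 tested, 34 had a log2 fold change below 0, the median was -0.42, and 13 were lower and 0 higher at an unadjusted p under 0.05 in edgeR, with none past an adjusted p of 0.05. Over all genes tested 8.48% were lower and 11.7% higher at that p. A log2 fold change below 0 was found for 53.1% of all genes tested and 63.8% of protein-coding genes. *Ifi27* was at 21.8, 18.4, 14.9 and 21.2 CPM in *Atm*-WT mice and at 12.8, 12.99, 12.6 and 13.8 CPM in *Atm*-KO mice (log2 fold change -0.55, adjusted p = 0.0931). *Irgm1*, a GTPase of defense against intracellular pathogens, was at 12.1, 14.0, 9.98 and 14.4 CPM against 7.63 to 9.37 CPM (log2 fold change -0.54, adjusted p = 0.0963). These 2 of 38 did not overlap between genotypes, near the 5.12% of all genes lower without overlap. *Ifit3*, which binds viral RNA, overlapped through mouse 13M at 10.4 CPM, with 16.4 to 23.4 CPM in the other *Atm*-WT and 7.87 to 12.1 CPM in the *Atm*-KO mice (log2 fold change -0.79, adjusted p = 0.111). *Bst2*, which tethers virus particles to the cell surface, showed the same overlap (log2 fold change -0.97, adjusted p = 0.119). The summed level of the list was 113 CPM in mouse 13M, 165 to 202 CPM in the other *Atm*-WT mice and 99.98 to 138 CPM in *Atm*-KO mice.

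**Figure D3:**
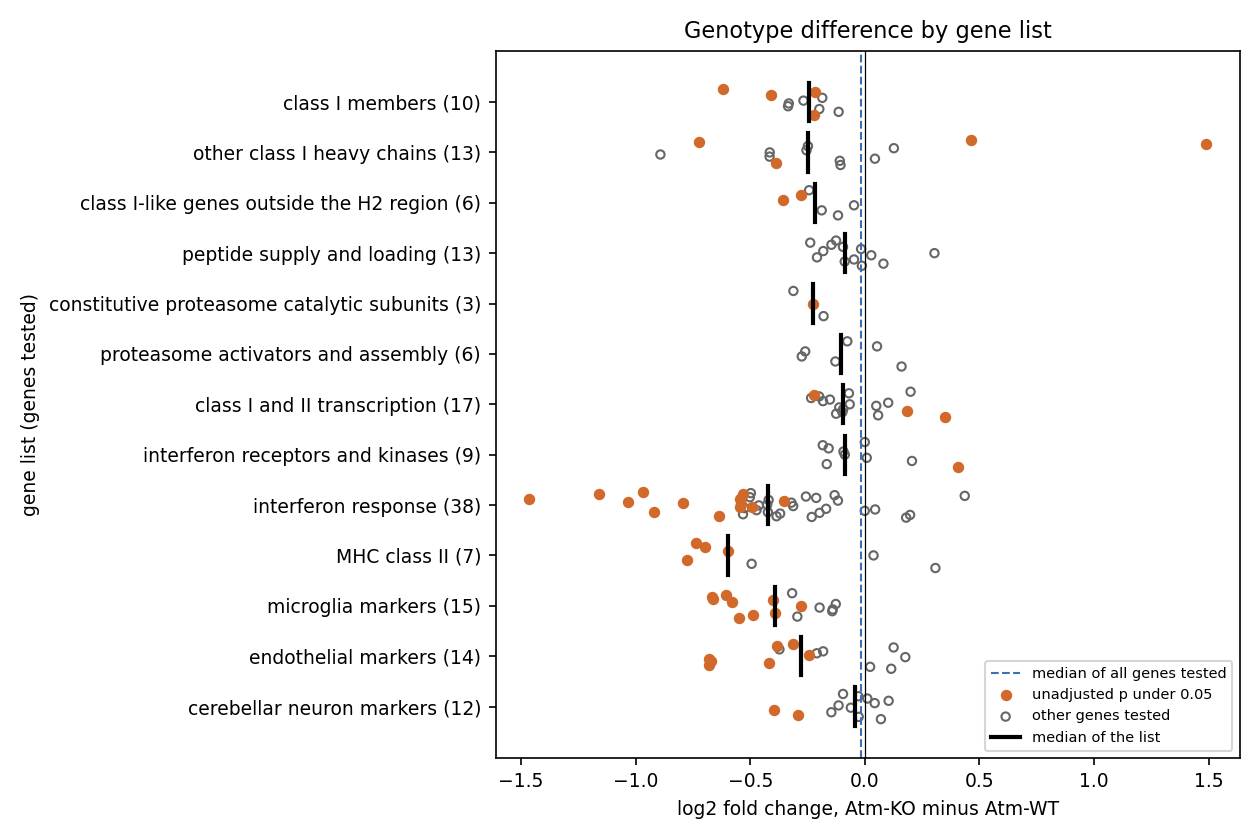
Log2 fold change of *Atm*-KO minus *Atm*-WT (x axis) for every gene tested in 13 lists (y axis, with the number tested). Filled points have an unadjusted p under 0.05, black bars are list medians and the dashed line is the median of all genes tested, -0.018. Class I genes lie left of 0 with a median of -0.25, and MHC class II genes have a median of -0.60.

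MHC class II molecules, which present peptides to CD4 T cells and in the brain come chiefly from microglia and border macrophages, had a median of -0.60 over 7 genes tested, of which 5 were lower. Among protein-coding genes 63.8% were lower. In this list 4 genes were lower at an unadjusted p under 0.05 in edgeR and 3 were lower without overlap, beside 8.48% and 5.12% of all genes tested. *Cd74*, the invariant chain, was at 3.46, 3.43, 2.83 and 2.88 CPM in *Atm*-WT mice and at 1.47, 2.18, 2.08 and 1.84 CPM in *Atm*-KO mice (log2 fold change -0.74, adjusted p = 0.0992, edgeR). *H2-Aa* was at 2.69, 2.39, 2.61 and 3.01 CPM in *Atm*-WT mice and at 1.30, 1.42, 1.79 and 2.10 CPM in *Atm*-KO mice (log2 fold change -0.70, adjusted p = 0.116). Neither overlapped between genotypes. *H2-Ab1* was at -0.60 and overlapped (adjusted p = 0.234). In DESeq2, *Cd74* passed the threshold with an adjusted p of 0.00381, as did *Bst2* with 0.0178 and, in the other direction, *Stat2* with 0.0456 and *Tyk2* with 0.0148. With the surrogate variable in edgeR, *Stat2* was at 0.13 (adjusted p = 0.534) and *Tyk2* at 0.25 (adjusted p = 0.439) in log2 fold change.

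Most markers of cells that carry class I molecules were lower in *Atm*-KO cerebellum too. All 15 microglia markers tested were lower, with a median of -0.39 and 9 at an unadjusted p under 0.05, among them *Ctss* at -0.58, *C1qb* at -0.67, *Csf1r* at -0.40 and *Tmem119* at -0.49 in log2 fold change. Their summed level was 191 to 262 CPM in the *Atm*-WT against 144 to 192 CPM in the *Atm*-KO libraries, highest in mouse 32M and, among *Atm*-WT mice, lowest in mouse 13M, the order also seen for *B2m*. Over all genes tested 53.1% were lower and 8.48% were lower at an unadjusted p under 0.05, and over protein-coding genes 63.8% and 11.7%. Of 14 endothelial markers, 10 were lower, 7 of them at an unadjusted p under 0.05, including *Pecam1* at -0.42 and *Ly6a* at -0.68. Their sums, 474 to 527 against 335 to 440 CPM, did not overlap. The part of these cells in the class I values was not tested.

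All 8 astrocyte, 8 oligodendrocyte, 9 mural and 6 choroid plexus markers tested were lower, with medians of -0.18, -0.23, -0.29 and -0.60, and 4, 3, 4 and 2 of them had an unadjusted p under 0.05, for which the shares over all genes and over protein-coding genes, 8.48% and 11.7%, apply to every list here. Without mouse 12M the oligodendrocyte median was -0.093 and the mural median -0.19. Border macrophage, meningeal fibroblast and neuron markers had shares closer to the 63.8% of protein-coding genes below 0. Of 7 border macrophage markers 5 were lower, none at an unadjusted p under 0.05, and their summed levels overlapped widely (8.46 to 19.0 against 9.44 to 13.4 CPM). Of 7 meningeal fibroblast markers 5 were lower, 1 of them at an unadjusted p under 0.05. Of 12 markers of cerebellar neurons 8 were lower, with a median of -0.045 (-0.10 without mouse 32M to -0.017 without mouse 13M) and 2 at an unadjusted p under 0.05, and summed to 10326 to 12411 CPM in the *Atm*-WT against 10243 to 11803 CPM in the *Atm*-KO libraries. Their part in the class I values was not tested either.

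**Figure D4:**
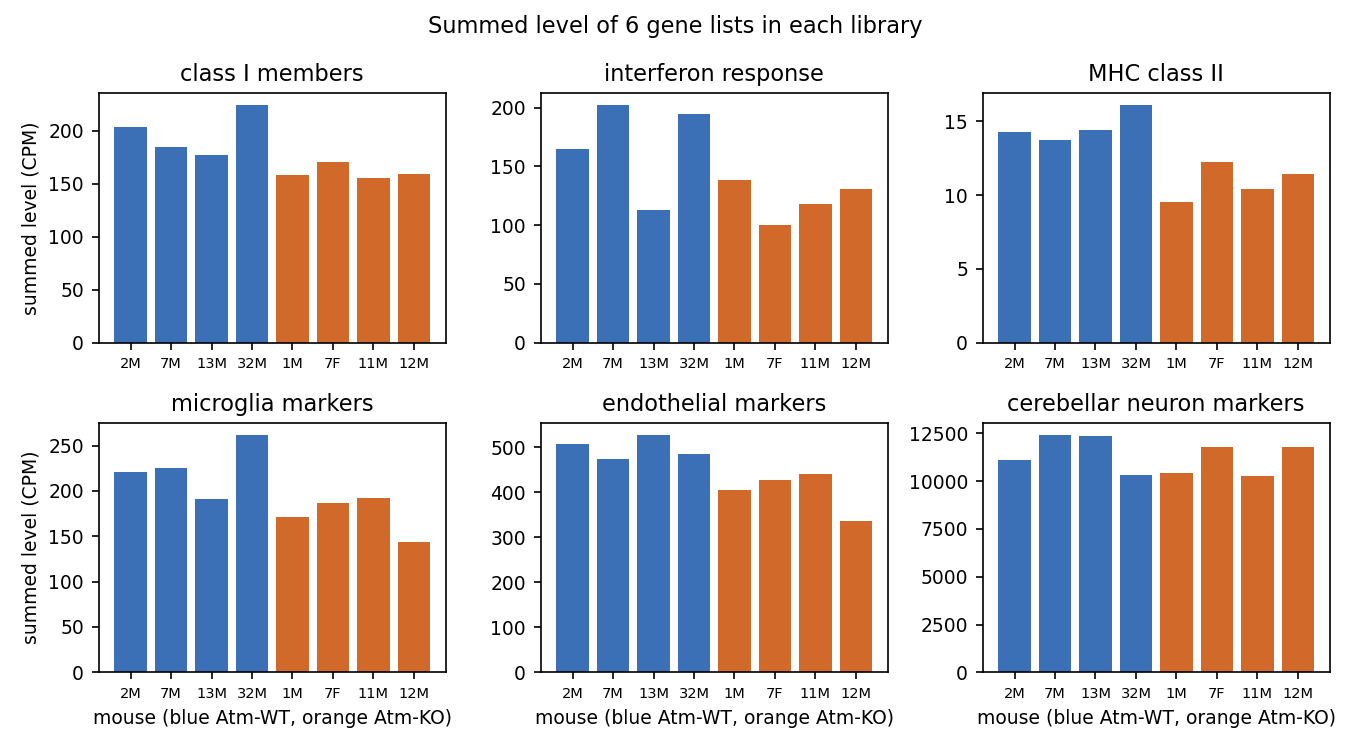
Summed level in CPM (y axis, bars from 0) of 6 gene lists in each mouse (x axis), *Atm*-WT in blue and *Atm*-KO in orange. The class I, MHC class II and endothelial sums do not overlap between genotypes, interferon response and microglia sums overlap through mouse 13M, and the neuron sums overlap throughout.

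Cells that read class I molecules were scarcely represented. Of 8 receptors and coreceptors for class I, only *Klra2* passed the filter, at 0.479 ± 0.134 against 0.378 ± 0.0975 CPM in *Atm*-KO against *Atm*-WT mice (adjusted p = 0.598, edgeR). *Cd8a*, the coreceptor of cytotoxic T cells, had a mean of 0.0822 CPM. Summed over their lists, T cell markers were at 1.34 to 2.04 CPM, B cell markers at 0.977 to 2.64 CPM, NK cell markers at 0.0516 to 0.294 CPM and neutrophil markers at 0.161 to 1.47 CPM in the 8 libraries. Only 3 of 9 T cell, 2 of 6 B cell, 0 of 5 NK cell and 1 of 6 neutrophil markers passed the filter. None of those tested had an unadjusted p under 0.05, and the others have no p. All 5 blood cell markers, chiefly hemoglobins, were higher in *Atm*-KO mice without passing an unadjusted p of 0.05. They summed to 5.87 to 42.9 CPM in the *Atm*-WT against 7.80 to 49.5 CPM in the *Atm*-KO libraries, and varied widely within both groups.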

How the data were processed

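Total RNA of 8 frozen mouse cerebella (4 *Atm*-WT, 4 *Atm*-KO) was sequenced by Novogene. The authors checked reads with FastQC 0.11.9, used STAR for alignment to GRCm39 and featureCounts for counting per gene, and deposited raw counts without normalization. Strand and pair settings are not given in the sources used here. Among counts from 1 to 50, 67.3% to 73.3% per library were even, so a count may be a read or a read pair. Identifiers were matched without version to GENCODE vM39 (56017 of 56691). Genes were filtered with filterByExpr (22423 kept), normalized by TMM and tested with glmQLFTest in edgeR 4.0.16 with Benjamini-Hochberg adjustment and no covariate. Two-sided exact permutation tests were used for ratios and single values. DESeq2 1.42.0, sva 3.50.0, other scalings and filters, halved counts and each library left out served as alternatives. Motifs were searched in RefSeq promoter windows, aligned with Biopython 1.88. The procedure was tested on simulated data. Members and gene lists were chosen with earlier results of these data known. In each other list, named genes were at most the 4 with the smallest unadjusted p under 0.05 and a mean of at least 1 CPM, or else the 2 of highest mean. With at least 65967130 counts per library, counting error was small for the chains and larger for *Psmb9*.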

Additional observations from a re-analysis of the deposited data

Results flagged for a closer look

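Values that stood apart from the other 3 mice of their genotype by Dixon's criterion were found in 9 of 86 sets of 4 values, where chance gives about 1 in 20 (4.3 sets). Among the class I genes, *Tapbp* was low in *Atm*-WT mouse 13M at 30.2 CPM (34.8 to 35.6 CPM in the others). *Psmb8* was high in *Atm*-KO mouse 1M at 1.42 CPM (0.878 to 0.928 CPM in the others), and *Psmb9* was high in *Atm*-KO mouse 7F at 0.723 CPM (0.478 to 0.503 CPM in the others). The ratio of *H2-K1* to *B2m* was low in mouse 7F at 47.7% (83.6% to 90.6% in the others), where *B2m* was high. Class I-like genes outside the H2 region summed to 28.8 CPM in *Atm*-KO mouse 1M (33.4 to 33.6 CPM in the others).

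*Atm*-KO mouse 12M had the lowest depth, 65967130 counts against 76598492 to 78431478, the lowest sum of constitutive catalytic subunits, 99.7 CPM against 119 to 121 CPM, and the lowest sum of oligodendrocyte markers, 1962 CPM against 3119 to 3351 CPM. Proteasome activators summed to 295 CPM in *Atm*-WT mouse 7M (284 to 286 CPM in the others).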

How the results depend on the processing

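Over 15 alternatives per gene, the log2 fold changes of *B2m* (-0.81 to -0.25), *H2-K1* (-0.47 to -0.34), *H2-D1* (-0.28 to -0.17) and *Tapbp* (-0.26 to -0.17) stayed below 0, as did those of *Tap1*, *Tap2*, *Psmb8*, *Psmb9* and *Psmb10*. *Nlrc5* ran from -0.65 without *Atm*-KO 1M to 0.053 without *Atm*-KO 11M. *H2-K1* kept an unadjusted p under 0.05 in all 15, *B2m* and *Tapbp* in 14 and *H2-D1* in 12. DESeq2 put 2 members past an adjusted p of 0.05 (*B2m* 0.0291, *H2-K1* 0.0120), 1 of them past a log2 fold change of 0.5 as well. Library size alone and a surrogate variable each left 2 members at an unadjusted p under 0.05 instead of 4, while genes called lower at that p over all 22423 went from 1902 to 1046 and 976. Leaving out a library gave 3 to 4 members at an unadjusted p under 0.05, where 13.6% to 21.6% of all genes were called in either direction. It gave 1 to 4 members without overlap, 4 without mouse 7F and 2 without *Atm*-WT 7M, *Atm*-WT 13M or *Atm*-KO 12M. The share of all genes without overlap was not computed for these smaller groups, where separation is more likely by chance, so the rise cannot be read. The genotype difference in the log2 ratio of *Psmb8* to *Psmb5* ran from -0.16 to 0.14 with a library left out. It was below 0 without *Atm*-WT 13M (-0.16) and without *Atm*-KO 1M or 12M (-0.10 each). *Atm* passed an adjusted p of 0.05 in DESeq2 (-0.66), without a filter (-0.66, 0.00402), with a surrogate variable (-0.77, 0.0498) and without *Atm*-WT 32M (-0.74, 0.0315), and ran from -0.74 to -0.59 with a library left out. The cause of these shifts was not tested.

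With the surrogate variable, the list medians were -0.043 for constitutive catalytic subunits, -0.043 for interferon receptors, -0.089 for endothelial, -0.092 for astrocyte, -0.098 for mural, -0.24 for microglia, -0.12 for neuron and 0.05 for oligodendrocyte markers, -0.15 for other class I heavy chains, -0.042 for peptide supply and -0.029 for proteasome activators, each over 1.5 times from the value without it. The median of the members was -0.23, of interferon response genes -0.42 and of MHC class II genes -0.57. No paired analysis was possible because the genotypes share only the number 7 among their mouse labels, and the labels do not say that it marks a litter. Counts were low for *Psmb9* (34 to 68 counts), *Psmb8* and *Nlrc5*. With counts halved their log2 fold changes were -0.31, -0.31 and -0.16, against -0.33, -0.33 and -0.19 in the main fit. The 4 mice per genotype limit every exact test to p = 0.0286 or more.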
